A study of Mus musculus with 16 samples.

Results

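The miR-297, miR-466, miR-467 and miR-669 families were followed in small non-coding RNA (ncRNA) libraries of plasma extracellular vesicles (pEVs). Every listed ncRNA whose name carried 1 of these 4 family numbers was taken, as mature miRNA or as precursor hairpin. The rule used names and no measured value, but it was set with earlier results of these data known. This gave 57 members of the 15159 ncRNAs listed, or 57 of 1247 miRNA entries, of which 23 were mature and 34 were precursor entries.

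MicroRNAs are short RNAs cut from hairpin precursors, and bases 2 to 8 of the mature strand, the seed, pair with target messenger RNAs. The members belong to a large group of rodent miRNAs, most of which lie as repeated copies in an intron of Sfmbt2, an imprinted gene that encodes a Polycomb group protein and is expressed from the paternal copy in the placenta. The copies are very alike, so that a short read can match several of them.

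The libraries came from 8 heterozygous PS19 mice (PS19+/-) and 8 wild-type (WT) littermates, with equal numbers of males and females and an age of about 9.6 months. In the PS19 line the promoter of the mouse prion gene drives a transgene for mutant (P301S) human tau. Vesicles were precipitated from 200 µL of plasma, which does not separate them by their cell of origin, and 1 library was made per mouse. The study reports that carry-over of albumin or lipoproteins could not be avoided with this method, and that it left later analysis undisturbed. The question put to the members was whether their abundance in pEVs differed between PS19 and WT mice.

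All 57 members had names that matched hairpins within Sfmbt2 on mouse chromosome 2 (GRCm38, chr2:10370510-10595253, plus strand). The GENCODE annotation held 82 hairpins of the 4 families, and 72 of them lay in Sfmbt2, all on the strand of the host gene. These 72 spanned 51.6 kb (chr2:10466663-10518279) and fell within a single intron (chr2:10461473-10523944). A precursor entry with at least 1 read was listed for 34 of the 72. The other 10 annotated hairpins lay on chromosomes 3, 5, 7, 9, 10, 11 and 13, and 0 of the 10 had an entry among the ncRNAs analysed.

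In the table of RefSeq miRNA sequences used here (GRCm38.p6), 0 of the 57 members were matched to a mature sequence. The table gave 8 relatives from outside Sfmbt2, which are shown for their content of alternating bases. Capitals mark the seed, and each sequence is written 5′ to 3′.
mmu-miR-466q: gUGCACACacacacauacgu
mmu-miR-466k: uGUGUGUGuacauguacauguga
mmu-miR-466j: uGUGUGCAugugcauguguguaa
mmu-miR-466i-3p: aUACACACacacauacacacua
mmu-miR-467f: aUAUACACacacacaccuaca
mmu-miR-467g: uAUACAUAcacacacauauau
mmu-miR-467h: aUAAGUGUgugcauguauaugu
mmu-miR-669n: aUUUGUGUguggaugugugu
Steps from 1 base to the next that read UG, GU, CA or AC made up a median of 69.9% of all steps over the 8 relatives (range 50% to 78.9%), against a median of 28.6% over the 1679 mature miRNAs of the table. The 8 relatives had 8 different seeds. None of the 8 had an entry in the data, so they carry no abundance value here.

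Summed over all listed entries, the libraries held 36220722 to 117583663 reads, and miRNA entries took 0.0645% to 7.51% of them. A read assigned to more than 1 entry would enter these sums more than once. WT replicate 2 stood apart, with the lowest total and the highest miRNA share. At the other end, PS19 replicate 4 had 52562 miRNA reads and PS19 replicate 1 had 71308, against 339731 or more in each WT library. All PS19 library names began with the letter G, as did WT replicates 2 and 4, while the other 6 WT names began with A or F. What the letter stands for is not given in the sources used here.

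The families had few reads in pEVs apart from 1 miRNA. Over 16 libraries the 57 members had 11452 reads, counting entries with the same value in every library once, and miR-669c-5p alone held 11033 of them. The remaining 419 reads were spread over 25 distinct profiles, and a read may count in more than 1 of them. The median member had 8 reads over all libraries, against 20 for the 1190 other miRNAs, and 39 members (68.4%) had under 10 reads, against 38.3% of the other miRNAs. These figures count every entry, so sets with equal values weigh on them, such as 14 entries with 8 reads each and 10 with 2 each. The contrast was not taken with 1 entry per profile. Only miR-669c-5p was read in all 16 libraries, whereas 21 members were read in a single library. Of these 21, 10 shared the profile of mir-467a-1, 4 that of mir-297a-3 and 3 that of miR-466m-3p.

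**Figure D1:**
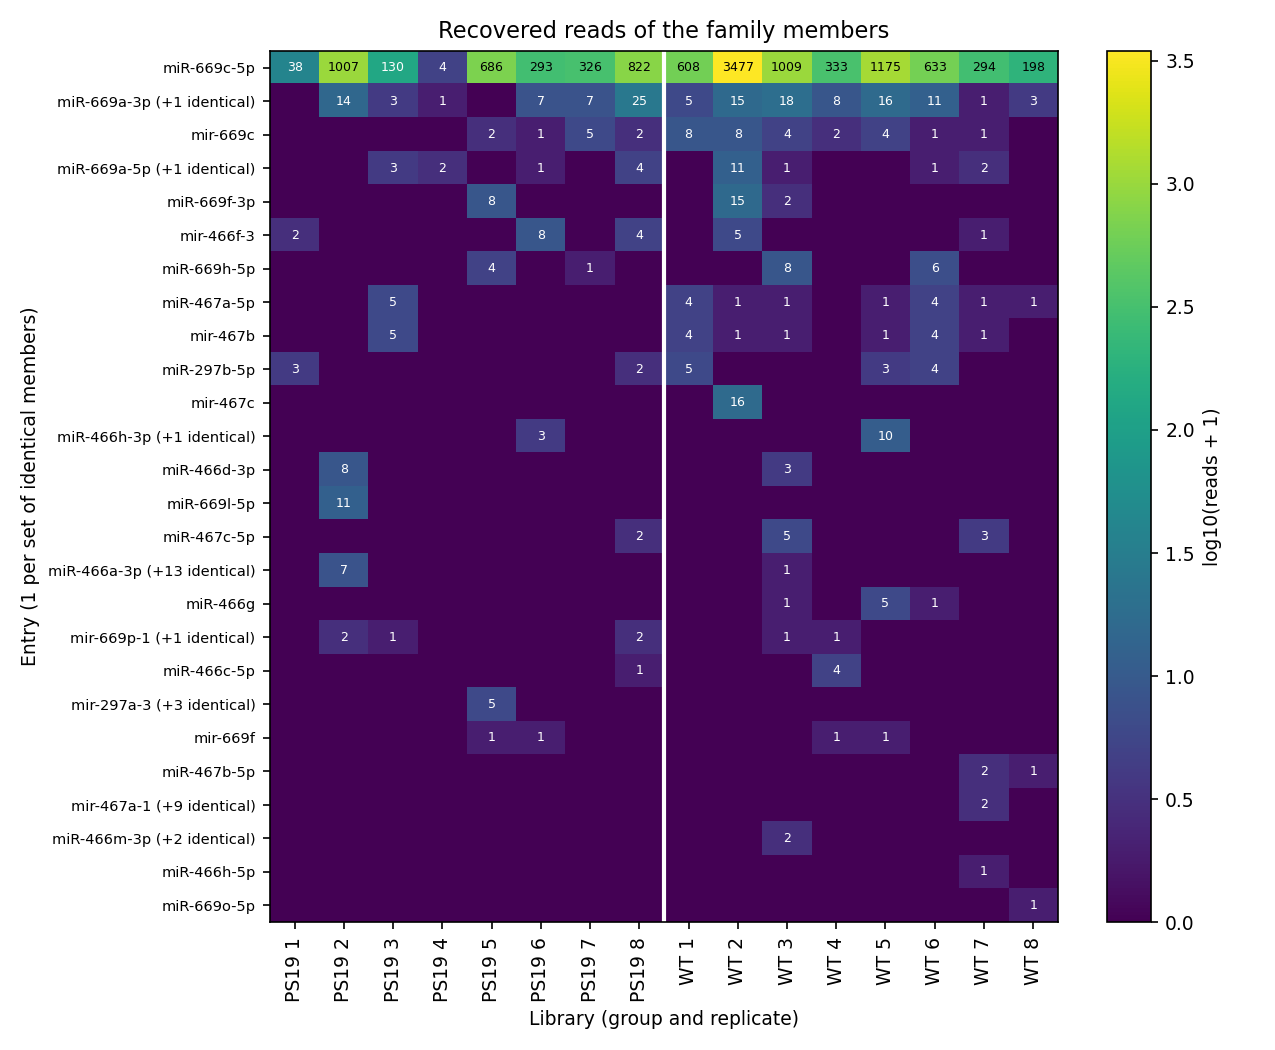
Recovered reads of each member in each library, with 1 row per set of members that had equal values in every library, PS19 libraries to the left of the white line and WT libraries to the right, and colour as log10(reads + 1). Numbers in the cells are reads and empty cells are 0. The top row, miR-669c-5p, runs from 4 to 3477 reads, and most other rows have reads in a few libraries only.

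Several names had equal values in every library. The 57 members gave 26 distinct profiles over the libraries, and 39 members shared a profile with at least 1 other member. In the largest such set, 14 entries of miR-466, among them miR-466a-3p, miR-466b-3p and miR-466e-3p, each had 7 reads in PS19 replicate 2 and 1 read in WT replicate 3. The mature miR-669a-3p and miR-669o-3p also had equal values in all libraries. Whether equal values came from the same reads was not tested, so a value is given for the set and not for 1 hairpin. In all, 36 members were also equal to an ncRNA outside the families.

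The families differed in depth. The miR-669 entries had 11299 reads, counting entries with equal values once, of which 266 remained without miR-669c-5p. Entries with nearly equal values, such as miR-467a-5p and mir-467b, were both counted, so a read may enter these sums more than once. The 22 miR-466 entries had 67 reads, the 15 miR-467 entries had 66 and the 5 miR-297 entries had 22. No entry of miR-297 or miR-466 was read in 8 or more libraries, against 1 of miR-467 and 6 of miR-669.

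**Figure D2:**
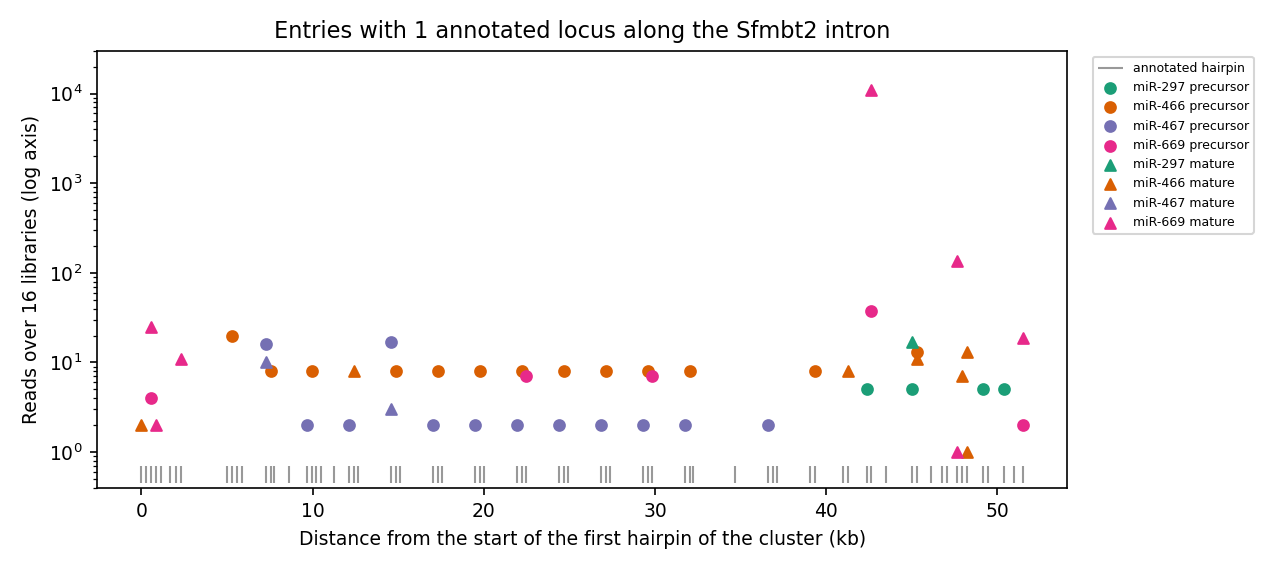
Reads over the 16 libraries (log axis) of members with a single annotated hairpin, by distance in kb from the start of the first hairpin of the Sfmbt2 cluster, with circles for precursors, triangles for mature miRNAs and grey ticks for the annotated hairpins. Mature miR-669c-5p, at 42.6 kb, has 11033 reads, while its own precursor has 38. Members with more than 1 hairpin are not drawn.

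miR-669c-5p is the 5′ strand of the hairpin Mir669c (GRCm38, chr2:10509296-10509404, plus strand, intronic in Sfmbt2). By mean normalized count, meaning reads divided by the size factor of the library, it ranked 61 of the 1247 miRNA entries, and it took 0.0859% of all miRNA reads. It made up 57.1% to 98.0% of the family reads of a library, where the lowest share was that of PS19 replicate 4 with 4 of its 7 family reads.

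In the PS19 libraries miR-669c-5p had a lowest normalized count of 15.3, a median of 271 and a highest of 720. In the WT libraries the lowest was 281, the median 485 and the highest 1430. The groups overlapped, with 5 PS19 libraries below every WT library and 3 WT libraries above every PS19 library. The PS19 libraries averaged 334 ± 263 normalized counts, and the WT libraries 638 ± 402 (SD, n = 8 per group). On the log2(normalized count + 1) scale, miR-669c-5p was lower in PS19 by limma, with a log2 fold change of -1.42 (SE 0.64, 95% interval -2.74 to -0.10). The raw p of limma was 0.0361 and the two-sided exact permutation test of the same means, 8 libraries against 8, gave p = 0.0646. It did not pass after Benjamini-Hochberg adjustment over all ncRNAs (limma adjusted p = 0.829). Like the exact permutation test, the models fitted to whole reads did not call it (edgeR's quasi-likelihood test, p = 0.106, and DESeq2, p = 0.113), so the call rested on limma alone. Among the libraries with the letter G, the WT values were 1430 and 514 against the same 8 PS19 libraries, and the log2 fold change of -2.07 did not pass in limma. The letter of the other 6 WT libraries and the genotype cannot be told apart.

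**Figure D3:**
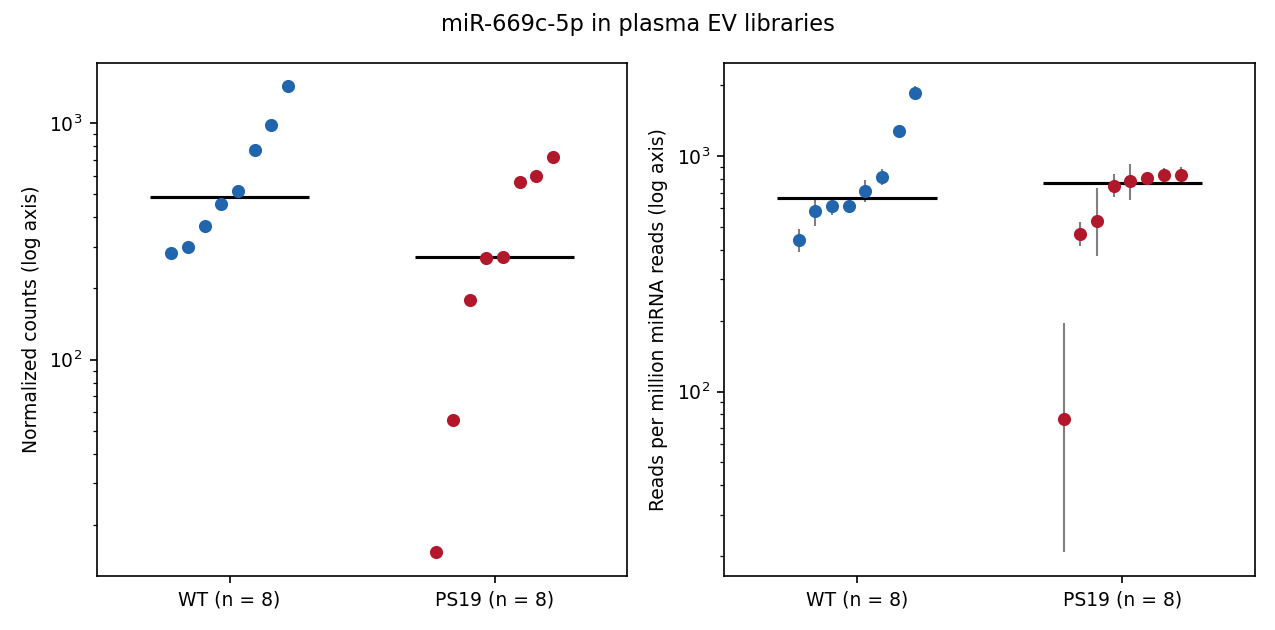
miR-669c-5p in each library, as normalized counts (left, log axis) and as reads per 1000000 miRNA reads with exact 95% binomial intervals (right, log axis), with 1 point per library and a line at the group median. On the left the PS19 median of 271 lies below the WT median of 485. On the right the PS19 median of 766 lies above the WT median of 662, and PS19 replicate 4 is far below all others.

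Relative to miRNAs alone the picture differed. In reads per 1000000 miRNA reads, miR-669c-5p ran from 76.1 to 833 in PS19 libraries, with a median of 766, and from 439 to 1863 in WT libraries, with a median of 662. The order of the medians was thus the opposite of that of the normalized counts. PS19 replicate 4, at 76.1 (exact binomial 95% interval 20.7 to 195, counting error only), was the only PS19 library below every WT library. With size factors taken from miRNAs only, the log2 fold change was -0.84 and limma's raw p was 0.138. Without PS19 replicate 4 the log2 fold change in normalized counts was -0.90, and limma's raw p was 0.101.

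**Figure D4:**
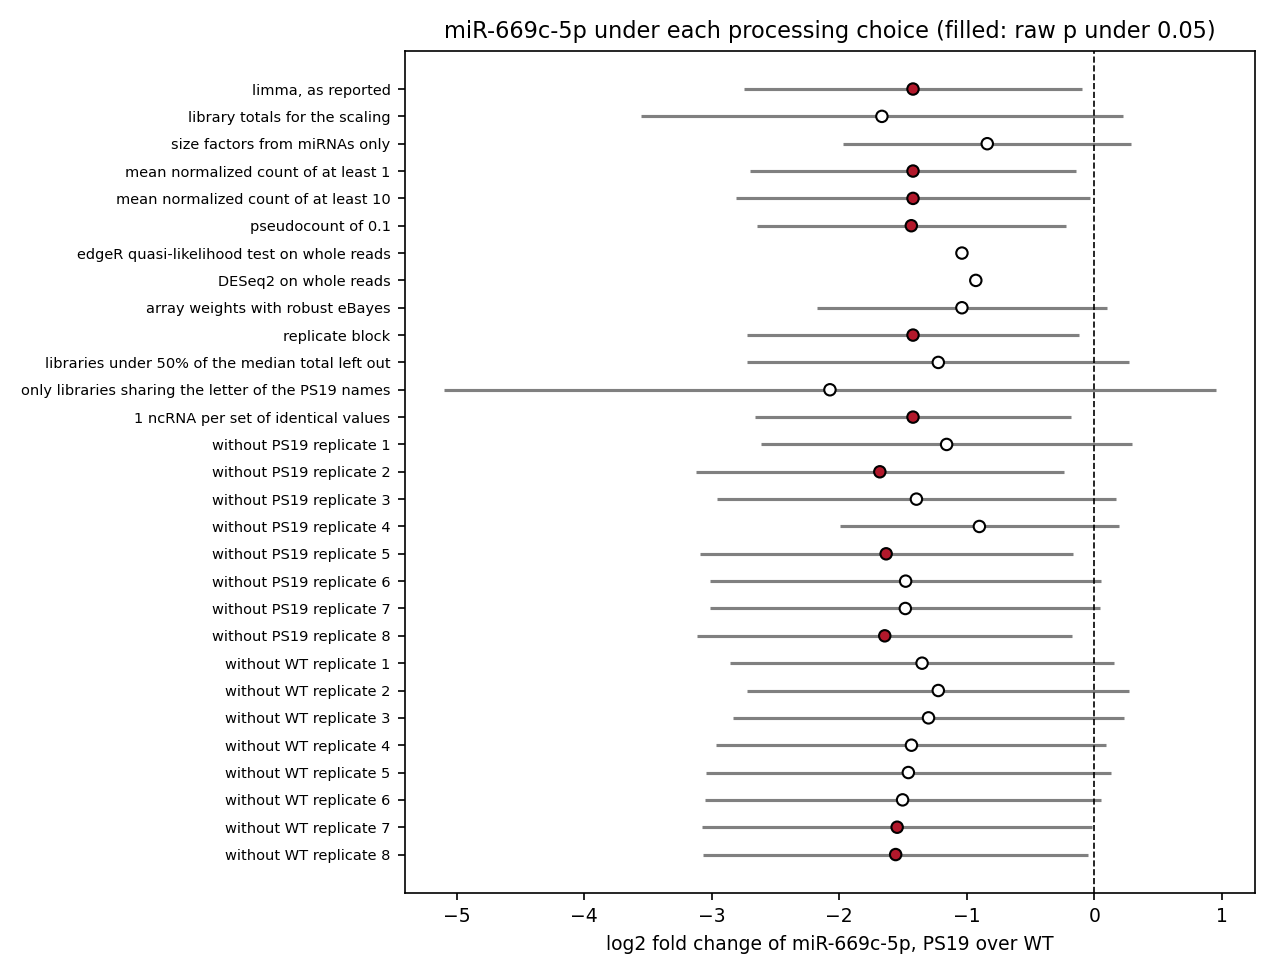
log2 fold change of miR-669c-5p, PS19 over WT, under each processing choice, with 95% limma intervals as lines where limma was used and filled points where the raw p was under 0.05. All values are below 0, from -2.07 to -0.84, and 5 of the 16 fits without 1 library are filled.

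Other miRNAs and sets of tissue miRNAs are given beside miR-669c-5p, with no test of the sets, whose ranges overlapped between the groups. Among the 1190 other miRNAs the median log2 fold change was -0.21, and 71.8% were lower in PS19. All 5 red blood cell miRNAs examined (including miR-451a and miR-486a-5p) were listed, and their summed normalized count ran from 3532 to 88340 (median 64557) in PS19 and from 34078 to 186707 (median 75846) in WT. Both liver miRNAs, miR-122-5p and miR-192-5p, were listed, with a sum of 8373 to 211497 (median 27482) in PS19 and 26450 to 385899 (median 105645) in WT. For 3 platelet and myeloid miRNAs the sum was 91.1 to 381 (median 246) in PS19 and 124 to 384 (median 181) in WT. For 3 muscle miRNAs it was 1733 to 94150 (median 10484) in PS19 and 4513 to 64139 (median 7191) in WT. For 4 neuronal miRNAs it was 1037 to 10546 (median 2763) in PS19 and 2294 to 10773 (median 3530) in WT. Fewer vesicles of a source and less RNA per vesicle cannot be told apart, and the part of these sources in the miR-669c-5p value was not tested.

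The 3 miRNAs outside the families whose levels over the 16 libraries were most like the summed level of the families were miR-744-5p (Spearman rho 0.92, Pearson r on log2 values 0.94), miR-320-3p (rho 0.89, r 0.93) and miR-30e-5p (rho 0.89, r 0.82). They were picked as the closest of 1190 and the summed level is mainly miR-669c-5p, so the values are a description and share the scaling of each library. Without the 2 libraries farthest from the median, rho was 0.88, 0.83 and 0.83 and r was 0.85, 0.77 and 0.72.

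The precursor of the same hairpin, mir-669c, had 10 reads in PS19 and 28 in WT. Its normalized count was 0 to 4.18 in PS19 (median 0.46) and 0 to 10.1 in WT (median 2.32). The groups overlapped, and the log2 difference of -0.86 did not pass (SE 0.57, limma raw p = 0.143, exact permutation p = 0.105). The PS19 mean of 1.03 was under the 4.01 normalized counts that 3 reads stand for in these libraries, so no fold is given.

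The next most abundant mature member was miR-669a-3p, whose name matches 12 hairpins of the cluster. Its values equalled those of miR-669o-3p, whose name matches 1 other hairpin. Each had 57 reads in PS19 and 77 in WT. The normalized count ran from 0 to 18.2 in PS19 (median 4.98) and from 1.01 to 17.6 in WT (median 6.28), and the groups overlapped nearly throughout. The log2 fold change of -0.60 did not pass (SE 0.63, 95% interval -1.89 to 0.69, limma raw p = 0.348, exact permutation p = 0.355). It was -0.28 without PS19 replicate 1 or without PS19 replicate 5, the libraries with 0 reads of it, and -0.29 with miRNA size factors. The other strand, miR-669a-5p, equal to miR-669p-5p, had 10 reads in PS19 and 15 in WT, with a log2 difference of 0.33 (limma raw p = 0.559, exact permutation p = 0.567).

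All other members stayed at or under 3 reads' worth of normalized counts in both group means, so their differences on the log2 scale carry no fold. Among miR-669 entries, miR-669f-3p had 8 reads in PS19 and 17 in WT, and 15 of these 17 came from WT replicate 2. For miR-669h-5p there were 5 reads in PS19 and 14 in WT. The precursor mir-669p-1, equal to mir-669p-2, had 5 and 2 reads. All 8 PS19 reads of miR-669f-3p came from PS19 replicate 5. The limma raw p-values of the 3 members were 0.690, 0.539 and 0.553.

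In the miR-467 family, miR-467a-5p was seen in 7 WT libraries with 1 to 4 reads each, and in 1 PS19 library, replicate 3, with 5 reads. Its log2 difference was -0.70 (limma raw p = 0.165, exact permutation p = 0.169). The precursor mir-467b had nearly the same reads, 5 in PS19 and 12 in WT (limma raw p = 0.269, exact permutation p = 0.289). Mature miR-467b-5p had 0 reads in PS19 and 3 in WT (limma raw p = 0.119, exact permutation p = 0.467). Without PS19 replicate 3 the log2 difference was -1.07 for miR-467a-5p and -0.91 for mir-467b, and limma's raw p was 0.00433 and 0.0154. With that library kept but array weights and a robust eBayes step added, miR-467a-5p also fell just under the raw p threshold of limma (log2 difference -0.93). Neither edgeR nor DESeq2 called it, and in the letter-G libraries the direction turned, with a log2 difference of 0.12 for both miR-467a-5p and mir-467b.

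In the miR-466 family the precursor mir-466f-3 had 14 reads in PS19 and 6 in WT, a log2 difference of 0.55 (limma raw p = 0.257). miR-466g had 0 reads in PS19 and 7 in WT, with 5 of the 7 in WT replicate 5 (limma raw p = 0.0734, exact permutation p = 0.200). miR-466a-3p and its set had 7 and 1 reads, and miR-466d-3p had 8 and 3, both with all PS19 reads in replicate 2. The limma raw p-values of the last pair were 0.504 and 0.789.

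In the miR-297 family, miR-297b-5p had 5 reads in PS19 and 12 in WT (limma raw p = 0.605, exact permutation p = 0.641). The precursor set of mir-297a-3 had 5 reads, all in PS19 replicate 5 (limma raw p = 0.251, exact permutation p = 1.0). miR-669l-5p had the same kind of pattern, with 11 reads in PS19 replicate 2 and 0 in the other 15 libraries (limma raw p = 0.232, exact permutation p = 1.0). Where 1 library holds all the reads, the permutation p is fixed beforehand.

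Over all 57 members, limma called 1 at a raw p under 0.05, miR-669c-5p, which was lower in PS19. Of all 15159 ncRNAs, 4.85% were called, with 2.72% of the 15159 higher and 2.13% lower in PS19, and of the other 1190 miRNAs 6.13% were called. The member share was 1.75%, so the families were not called more often than the background. The exact permutation test called 0 members (background 3.96%) and DESeq2 called 0 members (background 5.42%). A member with reads in 2 or fewer libraries, as 40 of the 57 had, could not pass the permutation test. For these members the missing call was fixed beforehand and says nothing about a difference. edgeR called 7 members, 5 higher and 2 lower in PS19, against a background of 15.1% (7.88% higher, 7.26% lower). Of these 7, 6 had all their reads in a single library. They were the 4 entries of the mir-297a-3 set, miR-669l-5p and mir-467c, the last with 16 reads in WT replicate 2 alone. The seventh was miR-466g, and miR-669c-5p was not among them. The smallest limma adjusted p over all members was 0.829.

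The median log2 difference over the 57 members was -0.13, with 56.1% lower in PS19, and with 1 entry per profile it was -0.20, with 73.1% lower. The same median was -0.01 over all ncRNAs tested and -0.21 over the other miRNAs. The scaling moved these medians, since library totals gave -0.11 over all ncRNAs and -0.30 over the other miRNAs, and miRNA size factors gave 0.18 and -0.09. The median over the members was -0.16 with library totals and -0.04 with miRNA size factors.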

How the data were processed

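Small ncRNA libraries (8 PS19, 8 WT) were aligned by the authors with STAR 2.5.3a to mm10 and normalized with DESeq2 1.42.1, per the submitters' processing notes, and assigned to ncRNAs with COMPSRA 1.0.3, per the study's methods. The deposited signal values are the authors' counts divided by size factors, and whole reads were recovered for 100% of values (within 1e-06 of a read). The authors' own comparison columns hold fold changes and p-values and were not used. The members and lists were chosen with earlier results of these data known. ncRNAs were tested with limma 3.58.1 (lmFit, eBayes with a trend) on log2(normalized count + 1), with Benjamini-Hochberg adjustment over all 15159. Alternatives were edgeR 4.0.16 and DESeq2 1.42.0 on recovered reads, other scalings, filters, a pseudocount of 0.1, array weights, subsets of libraries and a replicate block. Named members were the 10 with the highest means, the 5 lowest limma p-values among members higher and among members lower in PS19 and the most abundant mature and precursor entry of each family, with 1 per set of equal values, and the 3 miRNAs most like the summed level. mir-467c was named after its values were seen. A list of other miRNAs that share a seed was left out, since no member sequence was at hand, and 0 other listed miRNAs lay in Sfmbt2. Hairpin positions are from GENCODE vM21. Binomial intervals cover counting error only, limma's intervals cover the spread between libraries, and 3 reads were taken as the floor. R 4.3.3 was used. Replicate numbers do not pair mice: same-number deviations correlated from -0.18 to 0.47.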

Additional observations from a re-analysis of the deposited data

Results flagged for a closer look

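The 17 named members gave 34 groups of 8 libraries, of which 4 had no reads and no range. In 10 of the other 30, a single library lay far from the others of its group, by a gap, as a share of the group's range on the log2(normalized count + 1) scale, above the 95% critical value of Dixon's test. In 9 of the 10 the gap was 1.0 of the range, as it must be where 1 library has all the reads of its group. The 1 group in 20 that chance gives holds for normal values and does not apply to counts this sparse. The 9 were PS19 replicate 3 for miR-467a-5p (5 reads) and mir-467b (5 reads), PS19 replicate 5 for miR-669f-3p (8 reads) and mir-297a-3 (5 reads), PS19 replicate 2 for miR-669l-5p (11 reads), miR-466a-3p (7 reads) and miR-466d-3p (8 reads), and WT replicate 3 for miR-466a-3p (1 read) and miR-466d-3p (3 reads). For miR-669h-5p, PS19 replicate 5 (4 reads) had a gap of 0.584 of the range. None of the 10 groups was that of miR-669c-5p.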

How the results depend on the processing

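limma called 1 member. It called 0 with library totals and 0 with miRNA size factors. With the letter-G libraries alone it called 2, mir-467c and miR-466c-5p, both lower. Among the WT libraries of that subset, mir-467c was read only in replicate 2 (16 reads) and miR-466c-5p only in replicate 4 (4 reads). No share over all ncRNAs is given for these settings or for fits without 1 library, so their counts stand without a background. DESeq2 called 0 and edgeR 7 (5 higher, 2 lower). Leaving out 1 library gave 0 to 3 calls, all lower, and a median log2 difference of -0.16 to 0.00. That median was -0.60 at a mean of at least 1 (9 members), -1.42 at a mean of at least 10 (1 member), -0.44 with edgeR, -0.37 with a pseudocount of 0.1 and 0.0 with DESeq2 and with the letter-G libraries. The log2 fold change of miR-669c-5p stayed below 0 in every setting but lost its call with library totals (-1.67), miRNA size factors (-0.84), edgeR (-1.04), DESeq2 (-0.93), array weights (-1.04), without WT replicate 2 (-1.22) and in the letter-G libraries (-2.07). Its range without 1 library was -1.68 to -0.90, with a limma raw p under the threshold in 5 of 16 fits. It was lost without PS19 replicate 1, 3, 4, 6 or 7 or WT replicate 1, 2, 3, 4, 5 or 6. Calls gained without 1 library were miR-467a-5p (-1.07) and mir-467b (-0.91) without PS19 replicate 3, mir-669c without PS19 replicate 7 or WT replicate 8 (-1.10 and -1.09), and miR-466g without WT replicate 1, 2, 4, 7 or 8 (-0.46 each). Array weights called 1 member, miR-467a-5p (-0.93), in place of miR-669c-5p. The cause of these changes was not tested. The direction turned for miR-669a-5p with library totals (-0.080), for miR-669f-3p without WT replicate 2 (0.14), and in the letter-G libraries for miR-669a-5p (-0.19), miR-467a-5p (0.12), mir-467b (0.12), miR-297b-5p (0.47), miR-669h-5p (0.37) and mir-669p-1 (-0.20). Without 1 library the ranges that crossed 0 were -0.53 to 0.060 for miR-297b-5p, -0.12 to 0.32 for miR-466a-3p, -0.25 to 0.34 for miR-466d-3p, -0.55 to 0.14 for miR-669f-3p and -0.54 to 0.064 for miR-669h-5p. With the replicate block, 1 member was called, miR-669c-5p (limma raw p = 0.0336), but the numbers are not shared mice and 1 of 8 pairs correlated best with its own number. For 4 pairs of member and setting no read was left. The 39 of 57 members with under 10 reads over all libraries, many of them in sets of equal values, gave these tests little to work with. Whether depth bore on the calls was not tested.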
